A study of Homo sapiens with 9 samples.

Results

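Translation factors are the proteins that load a ribosome onto an mRNA, set it on the start codon and carry it along the coding sequence. The mRNAs of 47 such genes were followed in SKMEL28, an established human melanoma cell line, out of 48162 genes in the deposited table. They were taken by gene symbol from a list of initiation factors, elongation factors and the kinases that act on them. The rule holds no measured value, but the list was chosen with earlier results of these data known. All 47 symbols were present, on 48 rows, because EIF3L has 2. Reads were too few for a test of EEF1G, which was listed at 0 counts in all 9 libraries, and of the second EIF3L row, also at 0, which left 46 genes tested. Each of these had at least 89 counts in every library.

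The shCont cells carried a lentiviral short hairpin RNA against GFP as the control. The shp16 cells carried one against p16, the inhibitor of the kinases CDK4 and CDK6 that CDKN2A encodes. The shp16+shATR cells carried hairpins against p16 and against ATR, the kinase that answers replication stress, and which of the study's ATR hairpins was used in them is not given in the sources used here. All cells grew in DMEM with 5% FBS and were selected with puromycin at 1 μg/ml for 3 days. Each group has 3 libraries. For an mRNA panel with 3 replicates a group the study states technical replicates of 1 experiment, so p-values here measure the spread between libraries, which may be technical, and a hairpin and a difference between cultures cannot be told apart.

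Total counts lay between 17314662 and 23588174 per library. Values below are TMM-scaled CPM, counts relative to the size of the library, which compare 1 gene between libraries. FPKM, which also divides by gene length, is used to compare genes with each other. ATR held 83.4 to 93.5 CPM in shp16 and 39.9 to 41.0 CPM in shp16+shATR, a log2 fold change of −1.12 (SE 0.22, adjusted p = 0.0128). CDKN2A held 162, 113 and 103 CPM in shCont and 78.1, 93.5 and 99.9 CPM in shp16, which did not pass the threshold (log2 fold change −0.48, SE 0.16, adjusted p = 0.0723). It was −0.26 without the library labelled shCont replicate 1 (adjusted p = 0.0681). In shp16+shATR against shCont CDKN2A was called lower (−0.57, SE 0.16, adjusted p = 0.0263), a call kept in 14 of 19 alternatives. The library labelled shCont replicate 1 went against its label for ATR, with 45.9 CPM beside 93.5 and 96.4 CPM in the other shCont libraries. It also stood apart from its group across genes, with a chi-square per gene of 68.5 and 83.4 against the other libraries of its group, where that pair gave 5.15. The shp16 replicate 1 stood apart as well, at 37.9 and 37.2 beside 1.94. Among the 46 tested members the median distance of a library from the other 2 of its group, on the log2 scale, was 0.35 for the library labelled shCont replicate 1 and 0.24 for shp16 replicate 1, and between 0.04 and 0.20 for the rest. Counts of members are therefore also given without the library labelled shCont replicate 1.

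Initiation begins when eIF4E holds the cap of an mRNA together with the scaffold eIF4G and the helicase eIF4A, while eIF2 brings the initiator tRNA and eIF3 organises the small ribosomal subunit. The kinase complex mTORC1, whose activity the study set out to connect with p16 loss and ATR, is known to phosphorylate the eIF4E-binding proteins, which otherwise keep eIF4E from its scaffold. Stress kinases phosphorylate the alpha subunit of eIF2 and so block its recharging by eIF2B, and EEF2K phosphorylates and slows the elongation factor EEF2. All of these controls act on proteins, and only mRNA was measured here.

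Levels differed widely between the factors. EEF1A1, which delivers aminoacyl-tRNA to the ribosome, had 2048 ± 143 FPKM in shCont (SD, n = 3 libraries, here and below), 2131 ± 236 in shp16, and 1778 ± 92.6 in the double knockdown. EEF2, which moves the ribosome by a codon, followed with 932 ± 60.4, 1163 ± 188 and 955 ± 67.1 FPKM. EIF5A, which helps the ribosome through difficult peptide bonds, came next with 214 ± 51.0, 276 ± 55.1 and 227 ± 24.5 FPKM. It did not stand beyond the spread of EEF1B2, a guanine nucleotide exchange factor for EEF1A1, at 282 ± 56.4, 235 ± 18.5 and 192 ± 5.85 FPKM. The plot of levels by gene shows these 4 at its left end.

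**Figure D1:**
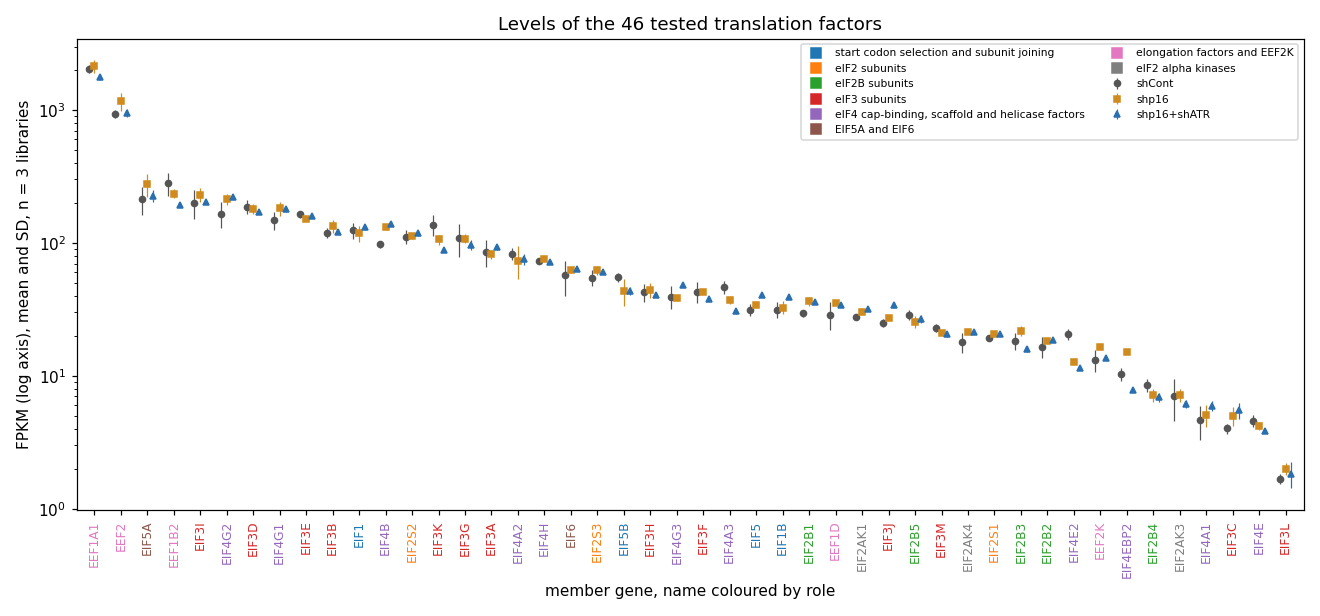
FPKM on a log axis for the 46 tested members, ordered by their mean over 9 libraries, with the mean and SD of 3 libraries per group and gene names coloured by role. EEF1A1 and EEF2 lie near 1986 and 1017 FPKM, well above the rest, and EIF3L lies lowest at 1.83 FPKM.

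At the low end, EEF1G was listed at 0, and the tested EIF3L row at 1.67 ± 0.150, 2.00 ± 0.214 and 1.83 ± 0.409 FPKM. EIF4E, the cap-binding protein itself, lay at 4.57 ± 0.482, 4.17 ± 0.290 and 3.86 ± 0.0587 FPKM. Its row has the longest gene length of the members, 11523 bases, and 8861 counts in all libraries together. EIF1B, with fewer counts (6392) over 1010 bases, had a mean of 34.5 FPKM. EIF4E is therefore low by FPKM, which depends on the annotated length, and not lowest by reads. EIF3L held 6.10, 5.24 and 4.85 CPM in shCont, 7.43, 6.50 and 5.51 in shp16, and 5.13, 7.31 and 5.23 in shp16+shATR, with the groups overlapping. EIF4E held 48.3, 54.7 and 54.6 CPM in shCont, 47.5, 49.9 and 47.2 in shp16, and 43.8, 44.5 and 45.4 in shp16+shATR, the last group lying below all libraries of both others. Its log2 fold change was −0.12 (SE 0.10, adjusted p = 0.437) in shp16 against shCont and −0.11 (SE 0.10, adjusted p = 0.576) in shp16+shATR against shp16. Some of the low rows share their position with others, and how the counting treated such reads is not given in the sources used here. The EEF1G row overlaps a same-strand row named MIR3654 with 178 counts in all libraries together. Both EIF3L rows overlap each other, and the EIF4A1 row, with 1660 counts in all, overlaps SENP3-EIF4A1 on the same strand with 39. EIF3C, with 3506 counts, has a near-identical copy, EIF3CL, with 624, so these levels are uncertain.

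The elongation factors with the most reads set much of what the members took of each library. Together the members held between 2.01% and 2.56% of all counts, of which EEF1A1 alone held between 0.753% and 1.07%. EEF1A1 had 10223, 8286 and 8804 CPM in shCont, 11375, 8657 and 8613 in shp16, and 7812, 7417 and 8488 in shp16+shATR. Its shp16+shATR libraries lay just below the shp16 ones, while shCont overlapped both. EEF2 had 3300.3, 2713 and 2838 CPM in shCont, 4654, 3249 and 3258 in shp16, and 2985, 2786 and 3306 in shp16+shATR. EIF5A had 428, 279 and 266 CPM in shCont, 547, 356 and 364 in shp16, and 334, 307 and 390.5 in shp16+shATR. For EEF2 and EIF5A the groups overlapped in both comparisons, with the first replicate of shCont and of shp16 the highest of its group.

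In shp16 against shCont, the comparison for p16 knockdown, 3 of the 46 tested members (6.52%) passed the threshold of an adjusted p of 0.05, beside 14.8% of the 15776 genes tested. EIF4EBP2 and EIF4B were higher, beside 7.23% of genes called higher, and EIF4E2 was lower, beside 7.59% called lower. All 3 belong to the eIF4 group. In bulk RNA a change in the mix of cells and a change within each cell cannot be told apart. Over the members the log2 fold change had a median of 0.09, with 30 above 0 and 16 below, beside a median of −0.02 over all genes tested. Without the library labelled shCont replicate 1, 9 members (19.6%) were called, beside 25.9% of genes, and the median was 0.15. By DESeq2 4 members were called, with EIF2B1 added to these 3, beside 18.6% of genes.

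EIF4EBP2 encodes a binding protein that competes with eIF4G for eIF4E. It had 68.8, 74.4 and 81.5 CPM in shCont, 119, 103 and 108 in shp16, and 56.4, 54.7 and 58.5 in shp16+shATR. The groups did not overlap in any comparison, with shp16 the highest and shp16+shATR the lowest. EIF4EBP2 rose 1.47-fold in shp16 against shCont (log2 fold change 0.55, SE 0.11, adjusted p = 0.00508). The rise kept its call in 19 of 20 alternatives, all but the replicate block on counts. Its row, ENSG00000148730, spans chromosome 10 from 72164135 to 72188374 on the plus strand in the coordinates of the deposited table. EIF4EBP1, another eIF4E-binding protein gene and not a member, had a higher mean over 9 libraries, 163 FPKM beside 11.1 for EIF4EBP2. EIF4EBP1 was not called in shp16 against shCont (log2 fold change −0.10, SE 0.19, adjusted p = 0.760) or in shp16+shATR against shp16 (0.01, SE 0.19, adjusted p = 0.982).

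EIF4E2 encodes a second cap-binding protein, known for translational repression because it does not join eIF4G in the usual way. Its values were 81.7, 72.3 and 64.2 CPM in shCont, 48.4, 43.6 and 42.6 in shp16, and 40.7, 39.2 and 42.1 in shp16+shATR. Every shCont library lay above every other library. EIF4E2 fell to 0.616 of its shCont level in shp16 (log2 fold change −0.70, SE 0.11, adjusted p = 0.00189), a call kept in the same 19 alternatives. The row, ENSG00000135930 on chromosome 2 from 233414762 to 233448354, overlaps the opposite-strand gene TIGD1, and whether strand was used in counting is not given in the sources used here.

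EIF4B, a cofactor that stimulates the helicase eIF4A and is a known substrate of S6 kinase, had 406, 379 and 429 CPM in shCont, 612, 519 and 508 in shp16, and 574, 550.4 and 615 in shp16+shATR. Every shCont library lay below the libraries of both other groups, which overlapped each other. EIF4B rose 1.35-fold in shp16 against shCont (log2 fold change 0.43, SE 0.11, adjusted p = 0.0243). This call was kept in 14 of 20 alternatives. It was lost without shCont replicate 2 (adjusted p = 0.0857), shp16 replicate 1 (0.0584), shp16 replicate 2 (0.0530) or shp16+shATR library a (0.0572), with only the groups compared (0.0922) and with a replicate block on counts.

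**Figure D2:**
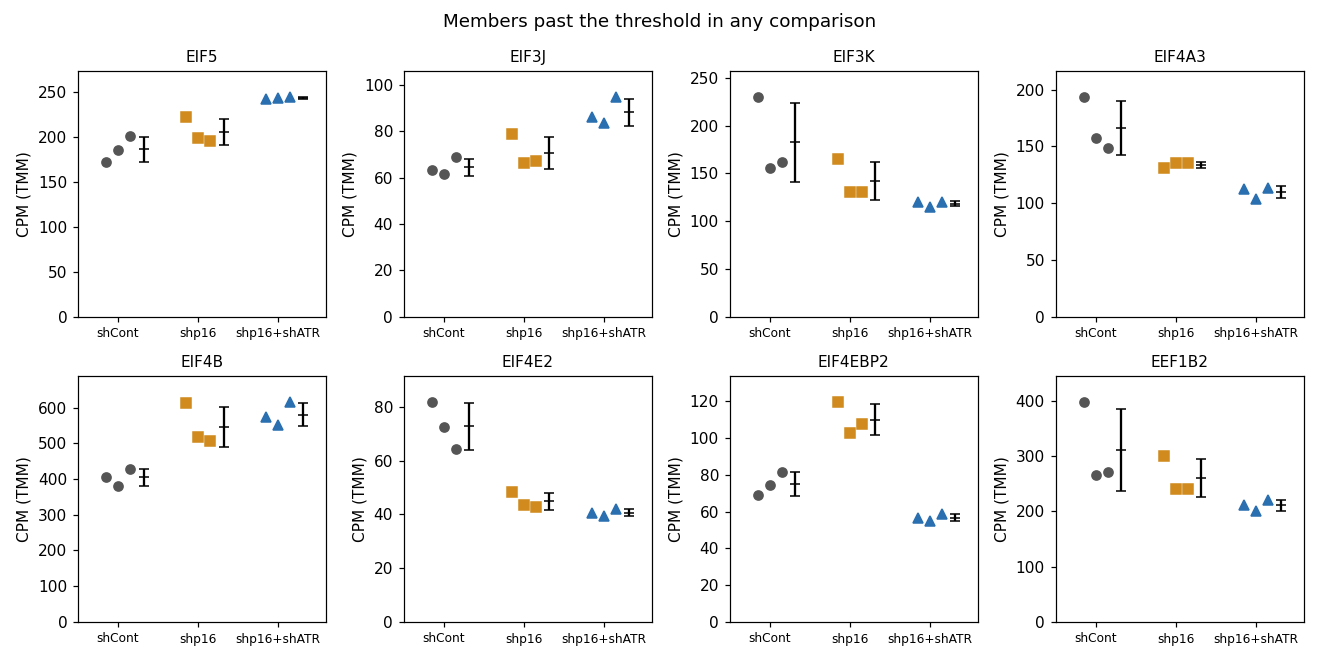
CPM in each library for the 8 members past the threshold in any comparison, with the mean and SD of 3 libraries at the right of each group and axes that start at 0. EIF4EBP2 is highest in shp16 and lowest in shp16+shATR, while EIF4E2 and EIF4B differ between shCont and both other groups.

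The remaining eIF4 genes did not pass the threshold in shp16 against shCont. Of 11 eIF4 factors tested, 2 were called higher and 1 lower, with a median log2 fold change of 0.04 and single values from −0.70 to 0.55. None of the 3 eIF2 subunits, 5 eIF2B subunits, 13 eIF3 subunits, 3 eIF2 alpha kinases, 5 elongation genes or 4 factors of start codon selection and subunit joining was called by edgeR in this comparison. Unadjusted p was under 0.05 for 1 gene each of the eIF2B, eIF3, elongation and kinase groups and for none of the others, and DESeq2 called 1 of these genes, EIF2B1. Their medians were 0.11 for eIF2, 0.15 for eIF2B, 0.01 for eIF3, 0.29 for elongation, 0.15 for the kinases and −0.01 for the start codon group. EIF5A and EIF6, a factor that keeps the large subunit from joining early, had log2 fold changes of 0.38 and 0.13 and were not called. Without the library labelled shCont replicate 1, EIF5A was called higher (log2 fold change 0.63, adjusted p = 0.0193). The others added by leaving it out, chosen for mention after their values were seen, were EIF2B1, EIF2B3, EIF3I, EIF6 and EEF1D, all higher.

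In shp16+shATR against shp16, the comparison for ATR knockdown in p16 knockdown cells, 1 of 46 members (2.17%) was called, beside 6.22% of genes tested. None was called higher by edgeR or DESeq2, beside 2.73% of genes, and 1 was called lower, beside 3.49%. It was EIF4EBP2, which fell to 0.514 of its shp16 level (log2 fold change −0.96, SE 0.11, adjusted p = 0.000831) and passed the threshold in all 19 alternatives, with log2 fold changes from −1.01 to −0.90 when each library was left out. The comparison shares the 3 shp16 libraries with the one before, so the rise of EIF4EBP2 in shp16 and this fall are not separate observations of the shp16 level. Against shCont, which does not use the shp16 libraries, EIF4EBP2 in shp16+shATR was lower by a log2 fold change of −0.41 (SE 0.11, adjusted p = 0.0171). That last call was lost without shCont replicate 3 (adjusted p = 0.0535) or without shp16+shATR library a (0.0771), b (0.0806) or c (0.0513).

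Over the members, the median log2 fold change in shp16+shATR against shp16 was −0.04, with 18 above 0 and 28 below, beside 0.00 over all genes. Without the library labelled shCont replicate 1, which is in neither group but enters the shared estimate of spread, 9 members (19.6%) were called, beside 19.9% of genes. Fitting only the groups compared gave 8 (17.4%), beside 18.9% of genes. The 8 members added to EIF4EBP2 by leaving that library out were EIF1B, EIF5, EIF3J and EIF4G3, all higher, and EIF2B3, EIF4A3, EEF1B2 and EEF2K, all lower. Their log2 fold changes were near those with all libraries, for example 0.31 in both fits for EIF4G3, a scaffold protein, and −0.45 in both for EIF2B3, a subunit of the exchange factor of eIF2.

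**Figure D3:**
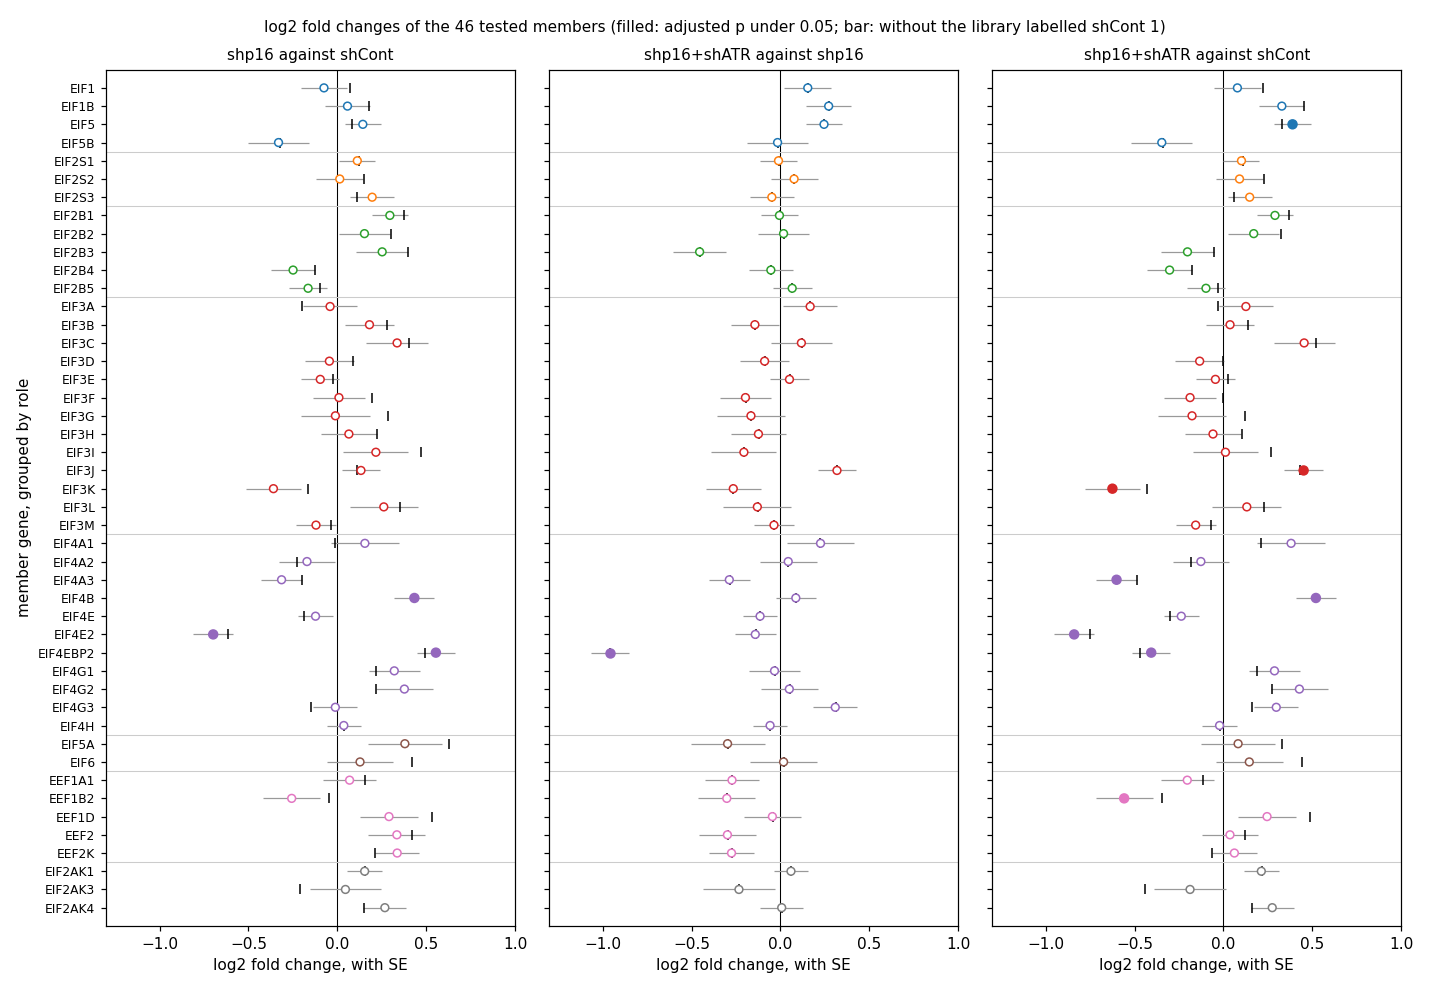
log2 fold change and SE of each tested member in the 3 comparisons, grouped by role, with filled circles for an adjusted p under 0.05 and vertical bars for the value without the library labelled shCont replicate 1. EIF4EBP2 at −0.96 is the only filled circle in shp16+shATR against shp16, where the bars sit on the circles, while the bars move away from the circles in the comparisons that use shCont.

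The member kinases that act on translation, and the subunit of eIF2 that they phosphorylate, were not called in either of these comparisons. EIF2S1, which encodes eIF2 alpha, had 87.3, 83.2 and 86.8 CPM in shCont, 102, 88.9 and 87.1 in shp16, and 92.2, 87.8 and 96.0 in shp16+shATR, with log2 fold changes of 0.11 and −0.01 (SE 0.10 for each). EIF2AK1, the haem-regulated kinase HRI, had 123, 118 and 126 CPM in shCont, 148, 131 and 129.7 in shp16, and 139.9, 142 and 144 in shp16+shATR. Both p16 knockdown groups lay above shCont for EIF2AK1, with a log2 fold change of 0.15 (SE 0.10, adjusted p = 0.320) in shp16. EIF2AK4, the kinase GCN2 that senses uncharged tRNA, had 82.3, 102 and 109 CPM in shCont, 127, 110.5 and 114 in shp16, and 120.4, 111 and 123 in shp16+shATR. Here too shCont lay below the other groups, with a log2 fold change of 0.27 (SE 0.12, adjusted p = 0.165) in shp16. EIF2AK3, the endoplasmic reticulum kinase PERK, had 20.5, 37.8 and 39.4 CPM in shCont, 31.2, 34.2 and 35.2 in shp16, and 30.5, 26.4 and 28.6 in shp16+shATR. The library labelled shCont replicate 1 lay lowest of all 9, and the log2 fold change in shp16 against shCont was 0.05 with it and −0.21 without it, neither past the threshold (adjusted p = 0.907 and 0.103). Its shp16+shATR libraries lay below the shp16 ones, with a log2 fold change of −0.23 that was not called (adjusted p = 0.580). Against shCont the double knockdown gave −0.19 (adjusted p = 0.542) with all libraries and −0.44 without the library labelled shCont replicate 1, the 1 of 19 alternatives in which EIF2AK3 was called (adjusted p = 0.00229). EIF2AK2, another eIF2 alpha kinase and not a member, had log2 fold changes of −0.03 in shp16 against shCont (adjusted p = 0.885), −0.30 in shp16+shATR against shp16 (0.210) and −0.33 in shp16+shATR against shCont (0.0776). Without the library labelled shCont replicate 1 EIF2AK2 was called lower in the last 2 (adjusted p = 0.0210 and 0.00205).

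EEF2K, the kinase of EEF2, had 57.3, 77.3 and 73.1 CPM in shCont, 94.9, 84.1 and 83.2 in shp16, and 71.6, 68.6 and 76.5 in shp16+shATR. The shp16 libraries lay above all others. Its log2 fold changes were 0.34 in shp16 against shCont (SE 0.13, adjusted p = 0.0960) and −0.28 in shp16+shATR against shp16 (SE 0.13, adjusted p = 0.249), and the second passed the threshold without the library labelled shCont replicate 1 (adjusted p = 0.0245) or with only the groups compared (0.0278). All 5 elongation genes tested, EEF2K among them, lay below 0 in shp16+shATR against shp16, beside 7839 of all 15776 genes. Their log2 fold changes ran from −0.30 to −0.05, and none was called by edgeR. The unadjusted p was under 0.05 for 1 of them, and DESeq2 called none.

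In shp16+shATR against shCont, the comparison for both knockdowns together, 8 of 46 members (17.4%) were called, beside 23.6% of genes tested. EIF5, EIF3J and EIF4B were higher, beside 10.9% of genes called higher, and EIF3K, EIF4A3, EIF4E2, EIF4EBP2 and EEF1B2 were lower, beside 12.7% called lower. The median over the members was 0.05, beside −0.02 over all genes. Without the library labelled shCont replicate 1, 16 members (34.8%) were called, beside 33.3% of genes, and without shp16+shATR library a, b or c there were 5, 4 and 4, beside 14.5%, 14.6% and 14.9% of genes. This comparison shares its groups with the others. EIF4E2 fell most (log2 fold change −0.84, SE 0.11, adjusted p = 0.000353), and EIF4B rose most (0.52, SE 0.11, adjusted p = 0.00615). The calls of EIF4E2, EIF4B and EIF4A3 were kept in all 19 alternatives.

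The other members called against shCont in the double knockdown fell outside the genes chosen for full values and are given because they passed this threshold. EIF5, which makes eIF2 hydrolyse GTP at the start codon, had 172, 186 and 200.1 CPM in shCont, 222, 199 and 195 in shp16, and 242, 243 and 244 in shp16+shATR. EIF3J, a loosely bound eIF3 subunit, had 63.2, 61.6 and 68.7, then 78.6, 66.4 and 67.1, then 86.2, 83.5 and 94.8 CPM. For both genes every shp16+shATR library lay above all libraries of the other groups. The log2 fold changes against shCont were 0.39 for EIF5 (SE 0.10, adjusted p = 0.0173) and 0.45 for EIF3J (SE 0.11, adjusted p = 0.0113). EIF3J overlaps SPG11 on the opposite strand. The call of EIF5 was lost without shCont replicate 2 (adjusted p = 0.0525) or shp16+shATR library a (0.0698), b (0.0653) or c (0.0650), and that of EIF3J without library c (0.0629).

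EIF4A3, the RNA helicase of the exon junction complex, had 193, 157 and 148 CPM in shCont, 131, 135 and 135 in shp16, and 113, 103 and 113 in shp16+shATR. EIF3K had 230.0, 156 and 162, then 166, 131 and 131, then 119.6, 115 and 120.4 CPM. EEF1B2 had 397, 265 and 270.2, then 300.2, 241 and 239, then 212, 201 and 220.3 CPM. For all 3, shp16+shATR lay below every other library, and the highest value of all 9 was that of the library labelled shCont replicate 1. The log2 fold change against shCont was −0.60 with it and −0.48 without it for EIF4A3, −0.62 and −0.43 for EIF3K, and −0.56 and −0.35 for EEF1B2, past the threshold in each case. The call of EIF3K was lost without shp16+shATR library b (adjusted p = 0.0553), and that of EEF1B2 without library a (0.0841), b (0.0966) or c (0.0663).

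**Figure D4:**
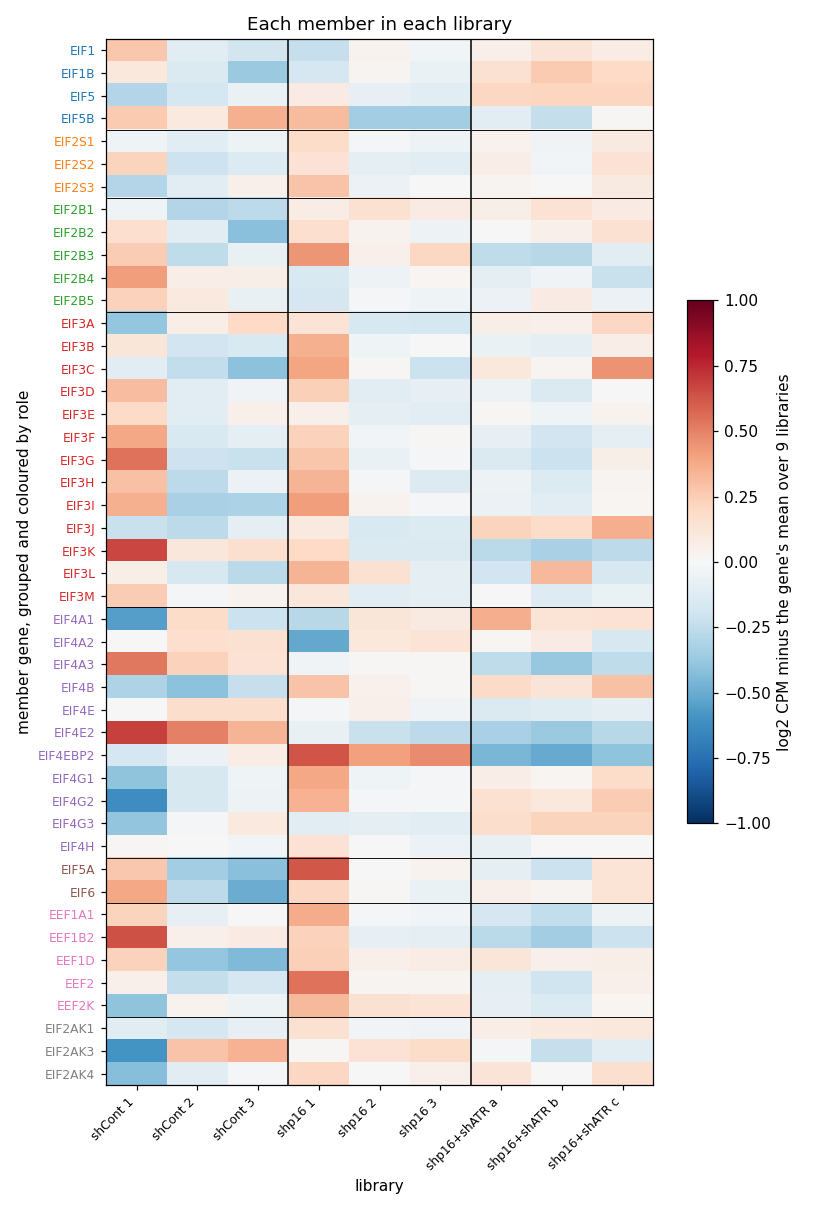
log2 CPM of each tested member in each of the 9 libraries, less the mean of that gene over the libraries, with genes grouped by role. The library labelled shCont 1 differs from the other shCont libraries over most rows and shp16 1 differs from shp16 2 and 3, while EIF4EBP2 and EIF4E2 separate the groups.

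Counted over libraries, 11 of 46 members (23.9%) had groups that did not overlap in shp16 against shCont, beside 33.6% of genes. The share was 17 of 46 (37.0%) in shp16+shATR against shp16, beside 37.7%, and 20 of 46 (43.5%) in shp16+shATR against shCont, beside 41.5%. Of the eIF4 factors, 6, 6 and 8 of 11 did not overlap in these comparisons, and of the eIF3 subunits 0, 3 and 3 of 13.

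Many mRNAs of the translation machinery are known to begin with a C followed by a run of pyrimidines, the 5′ terminal oligopyrimidine tract through which mTORC1 controls their translation. Starts of the most abundant elongation factors, which hold such a tract, are shown beside those of the called eIF4 genes, of which EIF4B holds one and the other 2 do not. RefSeq start sequences on GRCh38.p14 were available for 39 of the 47 genes, and a start was counted when its annotated first base was C and at least 4 pyrimidines followed on the transcribed strand. Of these, 10 (25.6%) had such a start, beside 7.35% of the 9959 tested genes with an entry and 4.07% of all 35116 start entries. They were EEF1A1, EEF1B2, EEF2, EIF2S3, EIF3D, EIF3F, EIF3K, EIF3M, EIF4A2 and EIF4B. The windows below give 7 bases before the start and 20 from it, with the tract in capitals.
EEF1A1, chr6:73521013-73521039, minus strand: gaacgttCTTTTTCgcaacgggtttgc
EEF2, chr19:3985444-3985470, minus strand: cagcgttCTCTTCCgccgtcgtcgccg
EEF1B2, the second of its annotated starts, chr2:206159888-206159914, plus strand: ttcgggtCCTTTTTCCTCTCTTCagcg
EIF3K, chr19:38619181-38619207, plus strand: ccaccacCTCTTCCTgttcccgtcctt
EIF4B, chr12:53006449-53006475, plus strand: tccgggtCTTTTgcgttctctttccct
EIF4EBP2, chr10:70404138-70404164, plus strand, without a tract: ttcgcccgcttccggtcgtcgtcgtcg
EIF4E2, the second of its annotated starts, chr2:232551060-232551086, plus strand, without a tract: tggggacctcggcggtttgggtgtttc

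Among the 10 members with such a start, EIF4B was called higher in shp16 against shCont, beside 16.5% called of all 732 tested genes with a tract and 14.8% of all genes. None was called by edgeR in shp16+shATR against shp16, beside 7.38% and 6.22%. Their median log2 fold changes were −0.02 and −0.14, beside 0.14 and −0.01 for the 28 tested members with an entry and no tract. Over all tested genes with a tract the medians were 0.04 and −0.02. Of the 10, 8 lay below 0 in shp16+shATR against shp16, beside 386 of all 732 tested genes with a tract. Without the library labelled shCont replicate 1 the medians of the 10 became 0.10 and −0.14, so that the first turned in sign. An annotated start is not the start used in these cells, and no start site was measured.

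The fall of EIF4EBP2 in shp16+shATR against shp16 was read beside its 3′UTR. In an earlier analysis of the same contrast the 7-mer TTTGGCC was picked out because genes with it in the 3′UTR were lower, so its presence is a description and no independent evidence. On the transcribed strand, 6 of the 45 tested members whose 3′UTR in GENCODE reached 50 bases held it (13.3%), beside 14.5% of 12502 tested genes. EIF4EBP2 held 3 copies in a 3′UTR of 6871 bases, and EIF1, EIF2B3, EIF3M, EIF4E and EIF5 held 1 each. Among 539 tested genes with a 3′UTR within 20% of that length, 39.9% held the 7-mer and 1.67% held 3 or more copies. The copies of EIF4EBP2 are shown with 10 bases on each side, on the plus strand of GRCh38, the 7-mer in capitals.
EIF4EBP2, position 56 of the 3′UTR, chr10:70421793-70421819: gtgcacctgaTTTGGCCaataggatca
EIF4EBP2, position 1865, chr10:70423602-70423628: taacaggccaTTTGGCCaagaaagaaa
EIF4EBP2, position 6074, chr10:70427811-70427837: ttgataatcaTTTGGCCacactgaaat

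Of the members with the 7-mer, EIF4EBP2 had the lowest log2 fold change in shp16+shATR against shp16, at −0.96, followed by EIF2B3 at −0.45 (adjusted p = 0.0990). EIF4E and EIF3M were at −0.11 and −0.04, EIF1 at 0.15 and EIF5 at 0.25, none of them called. Whether the sites bear on these mRNAs was not tested.

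A wider list of 62 other genes of translation was read beside the members, of which 61 were found and 60 tested. It holds further initiation factors and regulators, elongation and release factors, enzymes that modify EIF5A, EEF1A and EEF2, and mitochondrial factors. In shp16 against shCont 2 of 60 were called higher and 4 lower (10%), with a median of −0.08. The ATR comparison gave 2 higher and 1 lower (5.00%), with a median of 0.02, and the double knockdown against shCont gave 3 higher and 6 lower (15%), with a median of −0.09. Each share was below that of all genes tested. Without the library labelled shCont replicate 1 the shares were 25.0%, 16.7% and 28.3%.

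The falls in shp16 were led by EEF1A2, a tissue-restricted form of EEF1A (log2 fold change −1.19, SE 0.26, adjusted p = 0.0107), with 9.72, 5.29 and 7.14 CPM in shCont and 4.26, 2.32 and 3.17 in shp16. PPP1R15A, the stress-induced subunit known as GADD34 that helps dephosphorylate eIF2 alpha, followed (−0.80, SE 0.16, adjusted p = 0.00575), with 181, 129 and 126 CPM in shCont and 68.7, 92.6 and 88.6 in shp16. The third was MTRF1, a mitochondrial release factor (−0.50, SE 0.14, adjusted p = 0.0364), whose call was kept in 7 of 20 alternatives. Called higher were GCN1, the activator of GCN2 (0.42, SE 0.12, adjusted p = 0.0367), and DPH5, an enzyme of diphthamide synthesis on EEF2 (0.38, SE 0.12, adjusted p = 0.0496). Most alternatives ended these calls, since GCN1 kept its call in 8 of 20, with adjusted p up to 0.220, and DPH5 in 3 of 20, up to 0.235. In shp16+shATR against shp16, PDCD4, an inhibitor of eIF4A, rose (0.64, SE 0.11, adjusted p = 0.00634), with 66.1, 55.2 and 55.3 CPM in shp16 and 93.2, 87.3 and 95.5 in shp16+shATR. EIF5A2, the second EIF5A gene, rose as well (0.44, SE 0.11, adjusted p = 0.0431), a call kept in 9 of 19 alternatives, with adjusted p up to 0.173. DPH2, another enzyme of diphthamide synthesis, fell (−0.82, SE 0.13, adjusted p = 0.00362), and the calls of PDCD4 and DPH2 were kept in all 19. For PDCD4, EIF5A2 and DPH2 no library of one group reached those of the other.

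The labelled cell type was checked against markers. Melanocyte lineage genes, 8 in the list, summed to between 13390 and 15000 CPM in shCont, 7769 and 13020 in shp16, and 10940 and 13040 in shp16+shATR, and none was at 0. PMEL, a pigment granule protein, was the highest of them in every library, and 2 of the 8 genes were called in a comparison. The lowest shp16 sum was that of shp16 replicate 1, where PMEL held 3258 CPM beside 7839 and 7763 in replicates 2 and 3. The median sum in shp16 was 12840 CPM. TYRP1, a melanin enzyme, was lower in shp16 (log2 fold change −0.43, adjusted p = 0.0228), in shp16+shATR against shp16 (−0.88, adjusted p = 0.00140) and against shCont (−1.31, adjusted p = 1.41e-05). S100B, a calcium-binding protein, was lower in shp16 (−0.68, adjusted p = 0.0130) and higher in shp16+shATR against shp16 (0.67, adjusted p = 0.0254), opposite in sign to EIF4EBP2 in both. Keratinocyte and epithelial genes, 5 in the list, summed to 4.37 to 6.01 CPM in shCont, 24.6 to 27.2 in shp16 and 27.9 to 29.9 in shp16+shATR, with KRT5 at 0 in all shCont libraries. CDH1 made up most of the sum in both p16 knockdown groups, with a mean of 17.8 CPM in shp16 beside 2.39 in shCont (log2 fold change 2.90, adjusted p = 1.44e-06). KRT5 and KRT14 were also called higher in shp16, at means of 2.35 and 2.38 CPM. KRT8 was not called (0.38, adjusted p = 0.566), and EPCAM had too few reads for a test. Fibroblast genes summed to at most 46.3 CPM in any library, leukocyte genes to at most 1.06 with PTPRC and CD3E at 0 throughout, and endothelial genes to at most 5.61. The epithelial sum, EIF4B and EIF4E2 each differed between shCont and both other groups. The sum and EIF4B were higher with p16 knockdown, and EIF4E2 was lower. The part of these markers and of TYRP1 and S100B in the members' results was not tested.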

How the data were processed

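RNA from SKMEL28 cells was sequenced by the study in 9 libraries, 3 per group. The authors deposited counts of reads per gene, not normalized, and FPKM per gene. Each count column equalled 1 FPKM column once scaled by total and gene length (largest relative difference 4.22e-07). Per the labels, the submitters' processing notes name STAR 2.6.1, DESeq2 2 and GRCh38, without roles. The deposited coordinates are of another build, since genes on chromosome 1 reach 249231242 where GENCODE on GRCh38 ends at 248937043, so coordinates of table rows and of GRCh38 sequences are each named as such. The 3 shp16+shATR count columns share a name and are called libraries a, b and c. The members and lists were chosen with earlier results of these data known.

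Counts were tested with edgeR 4.0.16 (TMM, filterByExpr, quasi-likelihood F-test, 1 model of the 3 groups over 9 libraries) in R 4.3.3, with Benjamini-Hochberg adjustment over 15776 genes and a threshold of 0.05. The SE is the log2 fold change divided by the square root of F. DESeq2 1.42.0 and limma 3.58.1, on log2(FPKM + 1) and log2(FPKM + 0.1), were alternatives. So were other scalings, filters and thresholds, the replicate block, each library left out, and shp16 replicates 2 and 3 summed. Full values were given for members past the threshold in the shp16 against shCont or the shp16+shATR against shp16 comparison, for the 3 highest and 3 lowest by FPKM, and for EIF4EBP2, EEF2K, the eIF2 alpha kinases and EIF2S1. Of the wider list, the 3 largest rises and falls past the threshold in those comparisons were named, and EIF4EBP1 and EIF2AK2 beside the members related to them. Members of other comparisons were named after their values were seen. On simulated counts for shp16 against shCont over 15415 genes, 69 of 100 genes with a log2 change of 1 and 87 of 100 with a change of 2 were recovered. No member reached an absolute log2 fold change of 1, so these shares do not tell how often changes as small as the members' would be called. The simulated counts held no library that stood apart from its group. Reads without molecular identifiers are not independent molecules. No 2 libraries of a group agreed within sampling noise (lowest chi-square per gene 1.94, for shp16 replicates 2 and 3). All were counted as replicates, although a difference above sampling noise does not show that libraries are independent. Over the members the median absolute log2 ratio was 0.032 between shp16 replicates 2 and 3. It was 0.233 and 0.232 between each of them and replicate 1. With replicates 2 and 3 summed, the comparison for p16 knockdown called 8.44% of genes, beside 14.8%, and still 3 members. That for ATR knockdown then called 2.46% of genes, beside 6.22%. Starts came from RefSeq (GRCh38.p14) and 3′UTRs from GENCODE 29, using the longest annotated per gene.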

Additional observations from a re-analysis of the deposited data

How the results depend on the processing

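The count of members called moved by more than 1.5 times with the shared spread and with the threshold. In shp16 against shCont, where 3 members were called, there were 5 with no filter on low counts (beside 9.93% of all genes then tested), 0 with a replicate block fitted to counts of both groups (2.79% of genes) and 0 when an absolute log2 fold change of at least 1 was also asked (4.94% of genes). With that block 6 of 46 members had an unadjusted p under 0.05 in edgeR. This is a looser limit than that of the 2.79%, and the share of all genes at it was not counted. In shp16+shATR against shp16, where 1 was called, there were 2 with no filter (4.39% of genes), 8 with only the groups compared (18.9%) and 0 with that fold change limit (1.05%). In shp16+shATR against shCont, where 8 were called, there were 3 at an adjusted p of 0.01 (12.5% of genes) and 0 with the fold change limit (7.47%). With each library left out the counts ran from 2 to 9, from 1 to 9 and from 4 to 16 in these comparisons, the highest each time without the library labelled shCont replicate 1. Under each alternative run, the members' median log2 fold change differed from its value with all libraries by less than 0.145, the SD between replicates of the members' median log2 CPM. That SD is larger than the size of each of the medians, so a difference below it does not show that a median kept its sign. With each library left out the median ran from 0.05 to 0.15, from −0.08 to 0.02 and from −0.02 to 0.11. It changed sign in the comparison for ATR knockdown and in that for both knockdowns. The 659 values of single genes under alternatives cover 34 chosen results, and neither all members nor the wider list. Among these values none turned in direction where either value was called, and 4 gained the call. Of the values whose result was called by edgeR with all libraries, 210 kept the call and 21 lost it. The biological coefficient of variation from the common dispersion of edgeR was 0.149 with 9 libraries and 0.0903 without the library labelled shCont replicate 1.

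Equal replicate numbers were not shown to pair the libraries. In the FPKM columns, which carry numbers in all groups, same-numbered libraries deviated from their group means with correlations from −0.303 to 0.289 over 9 pairs, and other pairs from −0.369 to 0.426. In shp16 against shCont the replicate block on counts took the calls from 3 to 0 (adjusted p = 0.0536 for EIF4E2, 0.112 for EIF4EBP2 and 0.153 for EIF4B), and on log2(FPKM + 1) with limma the block gave 3, 1 and 8 calls in the 3 comparisons. Counts could be blocked in shp16 against shCont only, because the shp16+shATR count columns carry no number.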
